A study of Mus musculus with 8 samples.

Results

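Newborn skin of hairloss mice was compared with newborn skin of wildtype mice, each as 1 RNA-seq library taken at postnatal day 0. The genes described are the 13225 protein-coding genes with at least 1 FPKM (fragments per kilobase of transcript, scaled to sequencing depth) in either library, of 21899 protein-coding genes and 55418 genes of all types measured. The other 8674 protein-coding genes lay under 1 FPKM in both. Hairloss mice are spontaneously mutated mice, and the labels name neither the mutated gene nor a strain, sex or body site. The study followed both genotypes at days 0, 16, 19 and 28, again with a single library each. Without replicates, differences at day 0 describe these libraries and carry no error or p-value, and fewer cells of a type cannot be told apart from less RNA per cell.

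Mouse skin at birth is a new barrier. Its basal keratinocytes, marked by Krt5 and Krt14, feed suprabasal layers marked by Krt1 and Krt10, which end as dead corneocytes whose cornified envelope is built from loricrin, small proline-rich and late cornified envelope proteins. Hair follicles are still forming at this age, and the first coat appears only days later. Under the dermis lie fat and the panniculus carnosus, a sheet of skeletal muscle.

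The upstream sequences of 3 small proline-rich genes are shown because these cornified envelope precursors were among the genes highest in hairloss relative to wildtype skin and lie in 1 gene cluster on chromosome 3. Each run holds the 250 bases before the RefSeq transcript start on the gene's own strand (build GRCm38.p6), 5′ to 3′, with matches to TGANTCA, the core motif of AP-1 factors, in capitals. They are Sprr2d at chr3:92338890-92339139 (+), Sprr2h at chr3:92385435-92385684 (+) and Sprr1a at chr3:92485882-92486131 (-).
Sprr2d: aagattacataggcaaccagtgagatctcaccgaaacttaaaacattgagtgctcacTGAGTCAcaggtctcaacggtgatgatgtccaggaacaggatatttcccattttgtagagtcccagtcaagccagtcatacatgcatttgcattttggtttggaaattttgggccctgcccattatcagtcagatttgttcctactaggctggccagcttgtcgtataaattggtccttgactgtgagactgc
Sprr2h: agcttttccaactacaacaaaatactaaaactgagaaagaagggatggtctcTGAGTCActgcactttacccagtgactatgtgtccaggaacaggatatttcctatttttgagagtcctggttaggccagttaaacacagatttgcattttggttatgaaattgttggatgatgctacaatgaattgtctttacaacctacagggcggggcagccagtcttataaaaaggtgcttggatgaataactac
Sprr1a: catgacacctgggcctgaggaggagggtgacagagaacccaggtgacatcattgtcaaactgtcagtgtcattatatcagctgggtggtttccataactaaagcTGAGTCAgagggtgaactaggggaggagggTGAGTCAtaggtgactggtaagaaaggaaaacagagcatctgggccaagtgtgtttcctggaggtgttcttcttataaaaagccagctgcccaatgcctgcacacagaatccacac
The match began at -193 from the transcript start in Sprr2d, at -198 in Sprr2h, and at -146 and -116 in Sprr1a. Searched on both strands of the 250 upstream bases, TGANTCA was present in 9 of 47 genes at least 2-fold higher in hairloss skin (19.1%), 3 of 32 lower genes (9.4%) and 467 of all 10283 genes described that had a RefSeq promoter (4.5%). A promoter was matched for 47 of the 65 higher and 32 of the 64 lower genes, for 0 of the 16 lower histone genes and for none of Krt6a, Krt6b and Krt16, so the shares leave those genes out. The letters TATAAA were present in 23.4% of the higher, 25% of the lower and 6.9% of all these genes. CCAAT was present in 31.9%, 25% and 36.2%. A match of letters is not a bound site.

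Before the results, 3 facts of the libraries matter. Their depth was estimated from the spacing of low values as 42700000 fragments in the hairloss and 43200000 in the wildtype library, at which 3 fragments in a 1-kb transcript equal 0.07 FPKM in hairloss and 0.069 in wildtype skin. RNA of a Y-linked gene, Eif2s3y, stood at 0.094 FPKM in hairloss and 26.4 FPKM in wildtype skin, while the X inactivation RNA Xist had 76.1 FPKM in hairloss and 51.3 in wildtype skin. The wildtype library thus held RNA of the Y chromosome together with Xist, and the genotypes differed in their mix of sexes, whose part in any result below was not tested. The Y-linked genes Ddx3y, Uty and Kdm5d stood at 0, 0 and 0.0146 FPKM in hairloss skin and at 16.3, 9.71 and 6.2 FPKM in wildtype skin. Col3a1, the chain of type III collagen, was listed at 0 in the hairloss library and at 3238 FPKM in the wildtype library. It was also listed at 0 in the wildtype library of day 19 and the hairloss library of day 28, so this 0 may be a failed estimate and is read no further.

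The labelled tissue was recognisable in both libraries. Krt14 stood at 569 FPKM in hairloss and 399 FPKM in wildtype skin. Filaggrin (Flg), the matrix protein of the cornified layer, had 1743 FPKM in hairloss and 1847 in wildtype skin. The muscle creatine kinase Ckm stood at 833 FPKM in hairloss and 616 in wildtype skin. The adipocyte fatty acid binding protein Fabp4 had 901 FPKM in hairloss and 694 in wildtype skin. Of 10 marker genes of gut, liver and kidney, 1 reached 1 FPKM in either library.

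At birth the skin of the genotypes differed little. Counting genes that differed 2-fold or more on the log2(FPKM + 1) scale, which understates the fold of low genes, 65 were higher (0.491% of those described) and 64 lower (0.484%) in hairloss skin. At these shares, a count of none past 2-fold in a short list says little about that list. At later ages the same rule gave many more. Day 16 had 709 higher (5.27%) and 667 lower genes (4.96%), day 19 had 798 (5.84%) and 717 (5.24%), and day 28 had 695 (5.17%) and 762 (5.67%). The standard deviation of the difference over genes was 0.32 on the log2 scale at day 0, against 0.732, 0.771 and 0.986 at days 16, 19 and 28. The levels of the 2 day 0 libraries had a Pearson correlation of 0.98 across genes, which are not independent replicates. In all, 93.57% of the genes lay within 0.5 log2 units of equality, and 6 were at least 4-fold higher and 12 at least 4-fold lower.

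**Figure D1:**
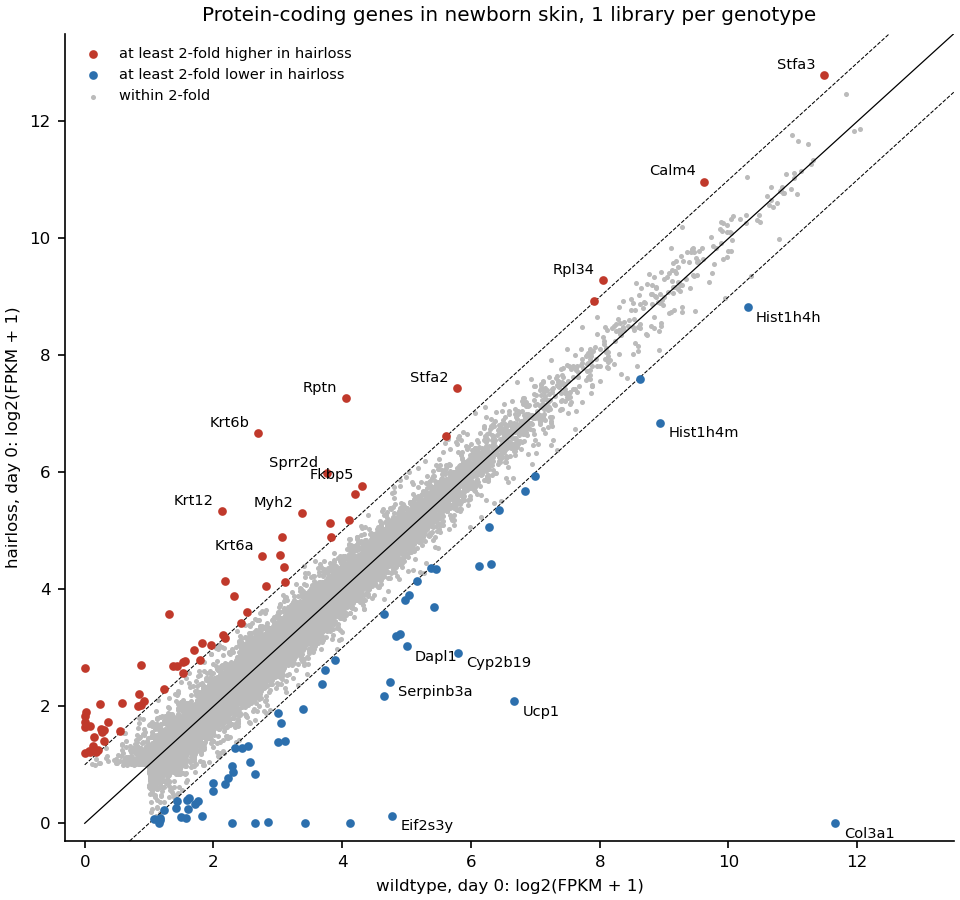
Level of each of the 13225 protein-coding genes in hairloss skin (vertical axis) against wildtype skin (horizontal axis) at day 0, both as log2(FPKM + 1), with 1 library per genotype. The solid line marks equality and dashed lines a 2-fold difference; 65 genes lie on or above the upper and 64 on or below the lower dashed line, and Col3a1 and 4 Y-linked genes lie at or near 0 in hairloss skin.

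The share past the rule varied with level. Of the 257 genes with a mean log2(FPKM + 1) under 1, 10.89% were past 2-fold. That share is partly built in by the filter. A gene described here with such a mean has at least 1 FPKM in 1 library and must be under 1 FPKM in the other. Past 2-fold were 1.41% of the 2051 genes between 1 and 2, 0.57% of the 6140 between 2 and 4 and 0.66% of the 3959 between 4 and 6. Above 6 it was 1.34% of 818 genes. With at least 10 FPKM in either library, 26 genes were higher and 29 lower. Gprc5a and Pbld1 were just inside the 1 FPKM minimum. Gprc5a had 1.0 FPKM in hairloss and 0.577 FPKM in wildtype skin. Pbld1 had 1.001 FPKM in hairloss and 0.117 in wildtype skin. Slc16a14 and Drp2 were just outside it. Slc16a14 had 0.999 FPKM in hairloss and 0.833 in wildtype skin. Drp2 had 0.929 FPKM in hairloss and 0.998 in wildtype skin.

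The genes with the largest differences fell into a few recognisable kinds. Wound and cornified envelope genes led the higher ones, while the lower ones included Y-linked genes, 2 brown fat genes, histone genes and some keratinocyte genes. Single values of Krt6a and Krt6b, of the Sprr2, stefin A and histone genes and of globins are uncertain, because these are families of near-identical copies between which reads can be split.

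**Figure D2:**
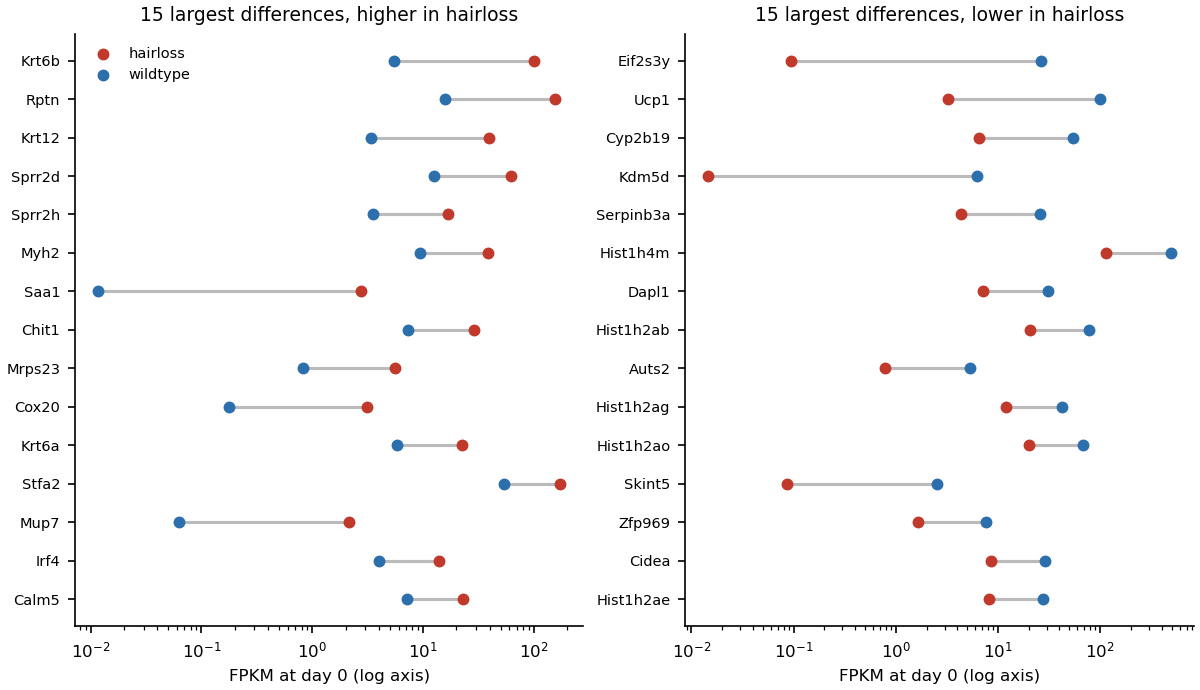
FPKM at day 0 on a log axis in hairloss (red) and wildtype (blue) skin, 1 library each, for the 15 most different genes of each direction that were above 0 in both libraries. Krt6b stood at 100.5 FPKM in hairloss and 5.48 FPKM in wildtype skin, and Ucp1 at 3.25 FPKM in hairloss and 100.7 in wildtype skin.

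Keratins form the intermediate filaments of epithelia, and pairs of them mark layers and states. Krt6b, which marks the follicle companion layer and is induced in wounded epidermis (build mm10, chromosome 15, 101676023 to 101680287), had 100.5 FPKM in hairloss and 5.48 FPKM in wildtype skin. This was 18.4-fold higher in hairloss, the largest difference among higher genes, at 3.97 on the log2(FPKM + 1) scale. Its neighbour Krt6a (chromosome 15, 101689910 to 101694307) had 22.6 FPKM in hairloss and 5.77 in wildtype skin, 3.92-fold higher. Krt16 (chromosome 11, 100246091 to 100248902), their filament partner in wounds, had 98.0 FPKM in hairloss and 48.2 in wildtype skin, 2.03-fold higher. The other 2 of the 5 companion layer and wound keratins lay within 2-fold. Krt17 had 179 FPKM in hairloss and 163 in wildtype skin. Krt75 had 8.42 FPKM in hairloss and 10.7 in wildtype skin.

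Keratins of the normal epidermis were also mostly higher, by less. Krt10 and Krt1, the suprabasal pair, had 3507 and 3249 FPKM in hairloss skin and 2038 and 2155 FPKM in wildtype skin, differences of 0.78 and 0.59. Krt14 and Krt5, the basal pair, differed by 0.51 and 0.28, Krt5 standing at 697 FPKM in hairloss and 573 FPKM in wildtype skin. Krt77, another suprabasal keratin, went the other way at 0.968 FPKM in hairloss and 1.83 in wildtype skin. None of the 13 epidermal keratins passed 2-fold, and their median difference was 0.28, beside 0.01 for all genes described. Together they took up 2.05% of all coding FPKM in hairloss and 1.39% in wildtype skin.

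Krt12, the keratin of corneal epithelium, had 39.6 FPKM in hairloss and 3.39 FPKM in wildtype skin. It lies on chromosome 11, 99415666 to 99422259, in the type I keratin cluster. Krt13, a keratin of oral and other mucosal epithelia, had 1.498 FPKM in hairloss and 0.0918 in wildtype skin at day 0. Among the other simple and mucosal keratins Krt8 had 0.849 FPKM in hairloss and 1.24 in wildtype skin. Krt18 had 0.610 FPKM in hairloss and 0.754 in wildtype skin. Krt4 had 0.175 FPKM in hairloss and 0.282 in wildtype skin. Krt12 was not in the list of 9 simple, periderm and mucosal keratins. Krt13 alone of these 9 passed 2-fold, and their median was -0.12.

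Hair shaft keratins were barely expressed at this age and mostly lower in hairloss skin. Of 13 measured, 8 reached 1 FPKM in either library, all 8 were below equality and 0 passed 2-fold, with a list median of -0.48. The low members differed most. Krt31 had 0.426 FPKM in hairloss and 1.74 FPKM in wildtype skin. Krt33a had 0.415 FPKM in hairloss and 1.58 in wildtype skin. Krt81 had 0.325 FPKM in hairloss and 1.18 in wildtype skin. Krt35, which is expressed early in the shaft cuticle and matrix and was the highest of the list, had 18.4 FPKM in hairloss and 20.5 in wildtype skin.

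Inner root sheath genes, which mould the growing shaft, were already higher in level and did not share that direction. Krt71 had 107 FPKM in hairloss and 77.3 FPKM in wildtype skin. Krt25 had 117 FPKM in hairloss and 82.3 in wildtype skin. Krt27 and Krt28 were close to equality. Krt27 had 35.3 FPKM in hairloss and 36.2 in wildtype skin. Krt28 had 38.3 FPKM in hairloss and 35.4 in wildtype skin. Krt72 and Krt26 were lower. Krt72 had 1.31 FPKM in hairloss and 3.29 in wildtype skin. Krt26 had 1.82 FPKM in hairloss and 3.61 in wildtype skin. The median over 13 genes was 0.09 and none passed 2-fold. Among 57 keratin-associated proteins, which cross-link shaft keratins, 6 reached 1 FPKM and the median over all 57 was -0.115. Of the 6, 2 lay above equality, among them Krtap17-1 at 0.69. Krtap8-1 and Krtap7-1 were past 2-fold lower, and reached 1 FPKM in wildtype skin only. Krtap8-1 had 0.981 FPKM in hairloss and 3.90 in wildtype skin. Krtap7-1 had 0.615 FPKM in hairloss and 2.97 in wildtype skin.

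**Figure D3:**
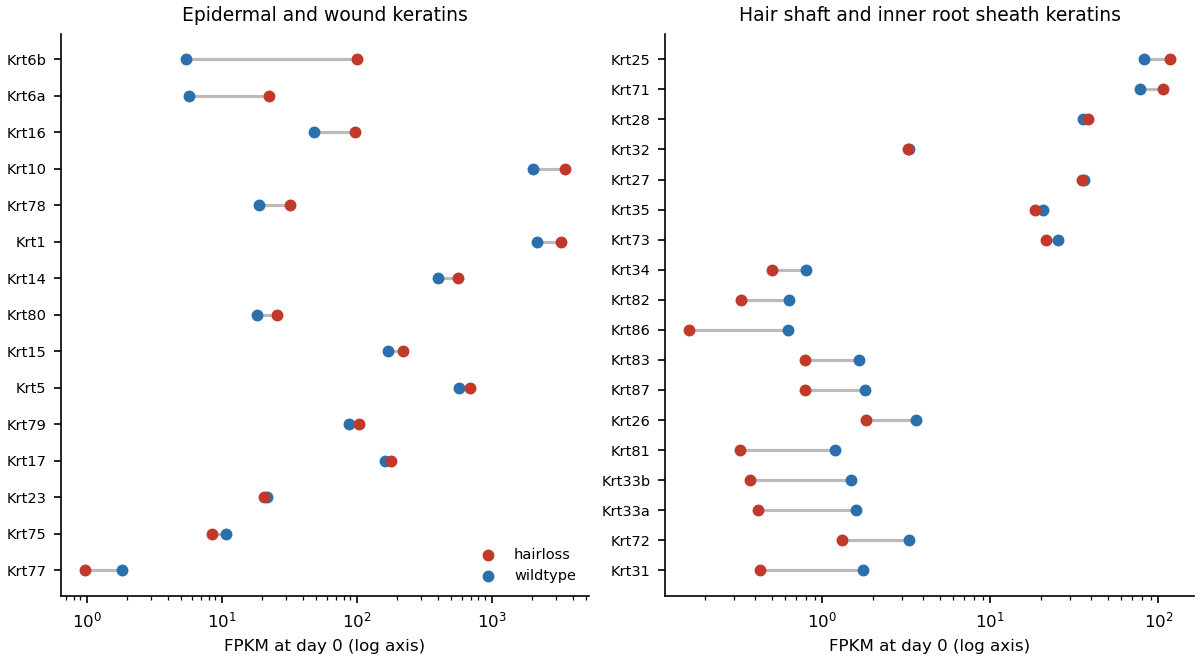
FPKM of keratin genes at day 0 on a log axis in hairloss (red) and wildtype (blue) skin, 1 library each, ordered by difference. Drawn are keratins of the epidermal, wound, hair shaft and inner root sheath lists. They had at least 0.5 FPKM in either library and were above 0 in both. Simple and mucosal keratins and Krt12 are not drawn. Krt6b, Krt6a and Krt16 are at least 2-fold higher on the log2(FPKM + 1) scale, the epidermal keratins Krt10, Krt1 and Krt14 are higher by less, and the low hair shaft keratins such as Krt31 (0.426 FPKM in hairloss and 1.74 in wildtype skin) are lower.

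Small proline-rich genes, whose products are cross-linked into the cornified envelope, were higher in hairloss skin. Sprr2d (chromosome 3, 92339140 to 92340873) had 62.2 FPKM in hairloss and 12.5 FPKM in wildtype skin. Sprr2h had 16.6 FPKM in hairloss and 3.53 in wildtype skin. Sprr1a, another precursor of the same cluster, also stood higher in hairloss skin. It had 48.5 FPKM in hairloss and 17.3 in wildtype skin. Sprr2a3 had 7.29 FPKM in hairloss and 2.88 in wildtype skin. Sprr2g, annotated as a polymorphic pseudogene, had 5.74 FPKM in hairloss and 0.414 in wildtype skin. Of 16 in the list, 10 reached 1 FPKM in either library, 5 of these, Sprr2g included, were at least 2-fold higher, and Sprr4 alone was lower, listed at 0 in hairloss and at 3.90 FPKM in wildtype skin. The median over all 16 was 0.63, and their summed level was 185 FPKM in hairloss and 64.2 FPKM in wildtype skin.

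Late cornified envelope genes, which lie beside them, were also mostly higher, with fewer past 2-fold. Of 17 Lce1, Lce2 and Lce6 genes, 15 were above equality, Lce1k alone was past 2-fold at 19.8 FPKM in hairloss and 7.59 FPKM in wildtype skin, and the median was 0.65. Lce6a had 90.1 FPKM in hairloss and 47.6 in wildtype skin. Lce1f had 66.5 FPKM in hairloss and 35.2 in wildtype skin. Lce1m was the largest exception at 87.1 FPKM in hairloss and 151 in wildtype skin. Among 6 Lce3 genes, known for induction when the barrier is broken, 4 reached 1 FPKM and 0 passed 2-fold. Lce3e had 7.87 FPKM in hairloss and 4.38 in wildtype skin. Lce3c had 27.1 FPKM in hairloss and 17.95 in wildtype skin.

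Repetin (Rptn; chromosome 3, 93393699 to 93399442), an S100 fused-type envelope protein, had 154 FPKM in hairloss and 15.7 FPKM in wildtype skin, a difference of 3.21. No other of the 7 genes of its family passed 2-fold. Filaggrin and hornerin (Hrnr) differed by -0.08 and 0.09, Hrnr having 69.9 FPKM in hairloss and 65.5 FPKM in wildtype skin. Loricrin (Lor), the main mass of the envelope, had 92.8 FPKM in hairloss and 127 in wildtype skin. Involucrin (Ivl) had 16.2 FPKM in hairloss and 19.6 in wildtype skin. The filaggrin-processing protease Asprv1 had 603 FPKM in hairloss and 376 in wildtype skin. These were within 2-fold. Over the epidermal differentiation complex, the cluster that holds the envelope genes (chromosome 3, 90692632 to 93526287), 7 of 48 genes were higher, 1 was lower, and 37 lay above equality, with a median of 0.55.

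Enzymes that finish the barrier differed less. Kallikreins are serine proteases that shed corneocytes, and of 16 kallikreins and their inhibitors 13 reached 1 FPKM and 0 passed 2-fold, with a median of 0.21. Klk7 had 102.5 FPKM in hairloss and 57.7 FPKM in wildtype skin. Of 31 ceramide and lipid barrier genes 30 reached 1 FPKM and 0 passed 2-fold, with a median of 0.12. Cers3, the synthase of very long chain ceramides, had 21.01 FPKM in hairloss and 13.6 in wildtype skin. Smpd1, the acid sphingomyelinase, had 11.7 FPKM in hairloss and 19.2 in wildtype skin. The cross-linking transglutaminases and peptidylarginine deiminases had a median of 0.04 over 9 genes.

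Stefins are small inhibitors of cysteine proteases, and mouse stefin A genes form a cluster on chromosome 16. Stfa3 (chromosome 16, 36450537 to 36455392) had 7111 FPKM in hairloss and 2872 FPKM in wildtype skin. Stfa2 had 173 FPKM in hairloss and 54.1 in wildtype skin. Both were past 2-fold, and 11 of the 12 stefins and cystatins lay above equality, with a median of 0.39. These 12 genes took up 2.21% of all coding FPKM in hairloss and 1.12% in wildtype skin.

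Calmodulin-like Calm4, a calcium-binding protein of suprabasal keratinocytes, had 2006 FPKM in hairloss and 789 FPKM in wildtype skin. Its neighbour Calm5 had 23.1 FPKM in hairloss and 7.15 in wildtype skin. Of the secreted Ly6-type proteins, Slurp1 had 3.25 FPKM in hairloss and 0.901 in wildtype skin. Slurp2 had 5.44 FPKM in hairloss and 1.71 in wildtype skin. Grhl3 (chromosome 4, 135541888 to 135573630), a transcription factor of barrier formation and wound closure, had 15.7 FPKM in hairloss and 6.07 in wildtype skin. It was the only one of 39 epidermal transcription factors that was past 2-fold higher, and Fosb, a subunit of AP-1, the only one lower at 4.24 FPKM in hairloss and 11.8 in wildtype skin. The immediate early genes Fos and Egr1, which are induced within minutes of handling or stress, were within 2-fold. Fos had 28.3 FPKM in hairloss and 36.5 FPKM in wildtype skin. Egr1 had 13.05 FPKM in hairloss and 17.1 in wildtype skin. Of 19 such genes Fosb alone passed 2-fold.

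Not every alarm gene shared the higher level. The calprotectin subunits S100a8 and S100a9, made by neutrophils and stressed keratinocytes, had 31.9 and 26.0 FPKM in hairloss skin and 22.7 and 21.7 FPKM in wildtype skin, within 2-fold. Of 23 alarmin and wound-type epidermal genes, 20 reached 1 FPKM. Of these 5 were higher and 1 lower, and the list median was 0.22. The 5 were Stfa2, Stfa3, Slurp1, Slurp2 and the beta-defensin Defb6, which had 3.004 FPKM in hairloss and 0.782 in wildtype skin. The 1 lower was Serpinb3a (chromosome 1, 107045587 to 107052303), an inhibitor of serine and cysteine proteases, at 4.35 FPKM in hairloss and 25.8 FPKM in wildtype skin.

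No listed marker of immune cells passed 2-fold, where 0.491% of all genes described were higher and 0.484% lower. Lists this short would seldom hold such a gene at those shares. Of 14 macrophage markers 0 passed 2-fold and 12 lay below equality, with a median of -0.34 and a summed level of 287 FPKM in hairloss and 338 FPKM in wildtype skin. Neutrophil markers were mostly under 1 FPKM, with 4 of 14 reaching it, among them Retnlg at 2.84 FPKM in hairloss and 1.72 in wildtype skin. The antimicrobial peptide gene Camp had 6.15 FPKM in hairloss and 7.53 in wildtype skin. Of 27 inflammatory cytokines and chemokines 9 reached 1 FPKM and 0 passed 2-fold, Ccl2 standing at 12.0 FPKM in hairloss and 15.9 in wildtype skin. Interferon-stimulated genes had a median of -0.24 over 16 genes with 0 past 2-fold. Outside these lists, Chit1, a chitinase, had 28.8 FPKM in hairloss and 7.35 in wildtype skin. Saa1, an acute phase apolipoprotein, had 2.75 FPKM in hairloss and 0.0116 in wildtype skin.

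Genes known for induction by glucocorticoids lay above equality, most of them by less than 2-fold. Fkbp5 (chromosome 17, 28399094 to 28517527), a co-chaperone of the glucocorticoid receptor and a direct target of it, had 53.6 FPKM in hairloss and 18.8 FPKM in wildtype skin. Zbtb16, a zinc finger factor, had 34.1 FPKM in hairloss and 13.04 in wildtype skin. The metallothionein Mt1 had 489 FPKM in hairloss and 240 in wildtype skin. All 10 genes of the list lay above equality and 3 were past 2-fold, with a median of 0.57. Mt2 had 358 FPKM in hairloss and 211 in wildtype skin. Tsc22d3, which encodes the leucine zipper protein GILZ, had 46.3 FPKM in hairloss and 27.0 in wildtype skin. At the low end of the list, Sgk1, a kinase, had 23.9 FPKM in hairloss and 21.03 in wildtype skin. The clock gene Per1 had 32.6 FPKM in hairloss and 31.2 in wildtype skin.

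**Figure D4:**
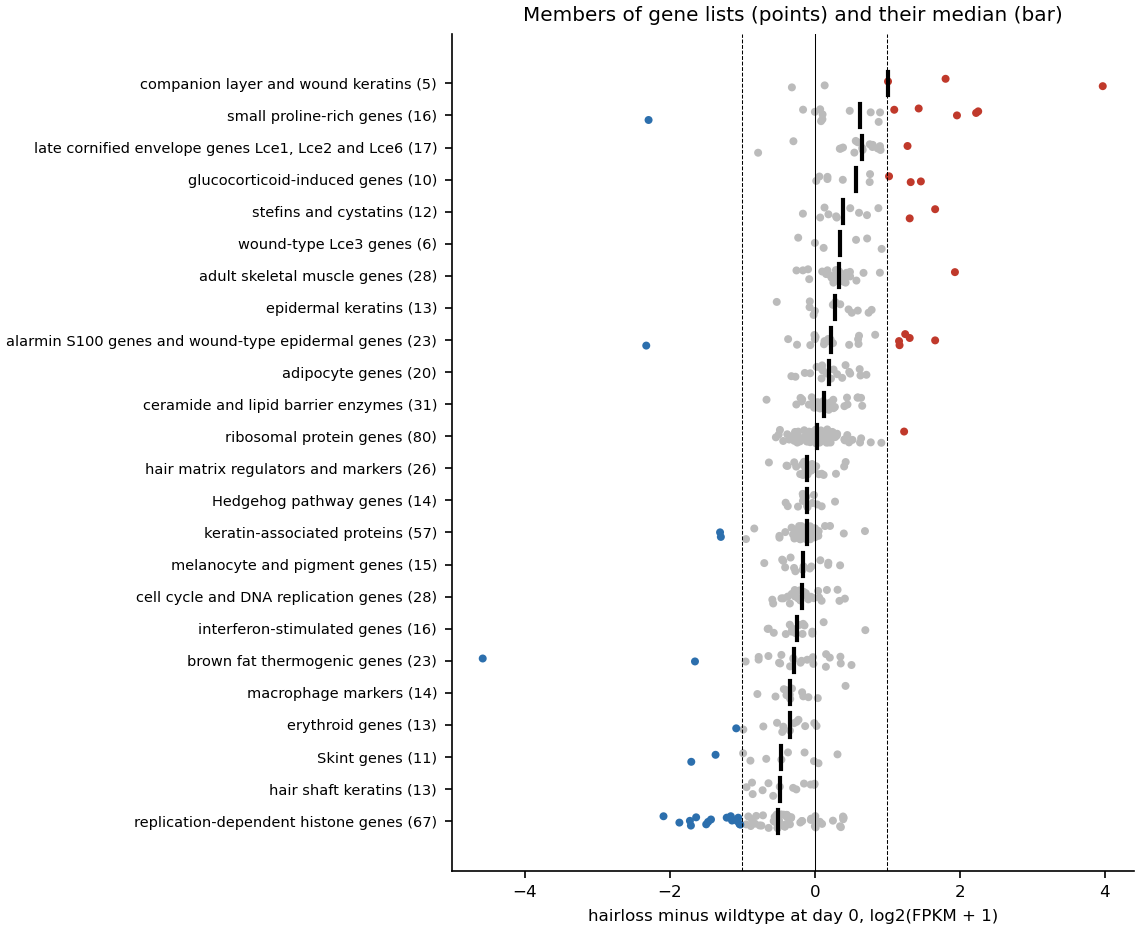
Difference between hairloss and wildtype skin at day 0 on the log2(FPKM + 1) scale for each member of 24 gene lists (points, list size in brackets), with the median as a bar; positive values are higher in hairloss skin, and red and blue points are past 2-fold (dashed lines). Wound keratins (median 1.01), Lce (0.65) and small proline-rich genes (0.63) lie to the right, and histone genes (-0.51) and hair shaft keratins (-0.48) to the left.

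Among the genes lower in hairloss skin, Ucp1 had the largest difference after Col3a1 and Eif2s3y. Ucp1 (chromosome 8, 83290352 to 83298452), the uncoupling protein with which brown fat makes heat, had 3.25 FPKM in hairloss and 100.7 FPKM in wildtype skin. Cidea, a lipid droplet protein of brown fat, had 8.46 FPKM in hairloss and 28.8 in wildtype skin. These were the 2 of 23 brown fat genes past 2-fold. Cox7a1, a respiratory chain subunit of brown fat and muscle, had 44.6 FPKM in hairloss and 87.4 in wildtype skin. The thyroid hormone deiodinase Dio2 had 1.79 FPKM in hairloss and 3.77 in wildtype skin. The coactivator Ppargc1a had 2.62 FPKM in hairloss and 4.65 in wildtype skin. Prdm16, a determinant of brown fat identity, went the other way at 2.23 FPKM in hairloss and 1.27 in wildtype skin, and the list median was -0.29.

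General fat genes did not share that direction. The median over 20 adipocyte genes was 0.19 with 0 past 2-fold, and the lipase gene Pnpla2 had 123 FPKM in hairloss and 74.6 FPKM in wildtype skin. Homeobox genes of the Hox clusters, which record position along the body, had a median of 0.00 over 39 genes with 0 past 2-fold. Of the 26 that reached 1 FPKM, 15 lay above equality and 11 below. Hoxb2 had the largest difference upward, at 0.56. The largest downward were those of 2 low posterior members, Hoxc10 and Hoxa10. Hoxc10 had 0.204 FPKM in hairloss and 1.18 FPKM in wildtype skin. Hoxa10 had 0.667 FPKM in hairloss and 2.02 in wildtype skin. The part of sampled body site in the brown fat result was not tested.

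Skeletal muscle genes were slightly higher. Of 28 adult muscle genes, 24 lay above equality, with a median of 0.33 and a summed level of 10660 FPKM in hairloss and 8675 FPKM in wildtype skin. Myh2, the myosin heavy chain of fast oxidative fibres, alone passed 2-fold at 38.5 FPKM in hairloss and 9.34 in wildtype skin. The embryonic and perinatal muscle genes had a median of 0.13 over 15 genes with 0 past 2-fold. Erythroid genes lay lower, with 6 of 13 reaching 1 FPKM, all 6 below equality, and Hba-a2, an alpha globin, at 39.8 FPKM in hairloss and 85.6 in wildtype skin. The part of tissue mix in the results on epidermal genes was not tested.

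Replication-dependent histone genes, whose messages peak in S phase and mostly end in a stem-loop without a poly(A) tail, supplied the most lower genes of any list. Hist1h4h (chromosome 13, 23531050 to 23531519) had 452 FPKM in hairloss and 1258 FPKM in wildtype skin. Hist1h4m had 114 FPKM in hairloss and 489 in wildtype skin. Hist1h2ab had 20.7 FPKM in hairloss and 78.2 in wildtype skin. Of 67 histone genes 63 reached 1 FPKM, 16 were at least 2-fold lower and 0 higher, and 53 lay below equality, with a median of -0.51. Histone genes took up 1.63% of all coding FPKM in hairloss and 2.52% in wildtype skin. In the stretch of chromosome 13 bounded by Hist1h1a and Hist1h2bp (21787461 to 23764406), 11 of 45 coding genes were lower. This stretch leaves out part of histone cluster 1. The labels do not say how messages were selected for the libraries, and its part in these values was not tested.

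Genes of the cell cycle differed less than the histones. The median over 28 genes was -0.18 with 0 past 2-fold and 21 below equality. Rrm2, a subunit of ribonucleotide reductase, had 12.3 FPKM in hairloss and 18.9 FPKM in wildtype skin. Mcm4, of the replicative helicase, had 11.9 FPKM in hairloss and 16.7 in wildtype skin. Mitotic genes lay on both sides. The kinase gene Plk1 had 10.5 FPKM in hairloss and 7.63 in wildtype skin. The kinesin gene Kif11 had 0.976 FPKM in hairloss and 1.94 in wildtype skin.

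Some keratinocyte genes were lower, although their list as a whole was not. Of 33 cytochrome P450, serpin and related keratinocyte genes 26 reached 1 FPKM. By the 2-fold rule 5 were higher and 3 lower, and the list median was 0.02. Cyp2b19 (chromosome 7, 26757142 to 26772630), a cytochrome P450 that oxidises arachidonic acid in differentiating mouse keratinocytes, had 6.54 FPKM in hairloss and 54.8 FPKM in wildtype skin. Dapl1, a gene of epithelial differentiation, had 7.16 FPKM in hairloss and 31.0 in wildtype skin. Betacellulin (Btc), a ligand of the EGF receptor, was the only gene past 2-fold lower in the separate list of EGF family genes. Btc had 1.43 FPKM in hairloss and 4.44 in wildtype skin. Of 11 Skint genes, immunoglobulin-like proteins of keratinocytes of which Skint1 selects epidermal gamma-delta T cells in mice, 10 reached 1 FPKM and 1 of these lay above equality. Skint5 had 0.0856 FPKM in hairloss and 2.54 in wildtype skin. Skint2 had 0.307 FPKM in hairloss and 2.38 in wildtype skin. Skint1, by far the highest, had 30.8 FPKM in hairloss and 24.6 in wildtype skin. T cell markers were mostly under 1 FPKM, with 1 of 13 reaching it. The other P450 genes past 2-fold went both ways. Cyp1a1, a target of the aryl hydrocarbon receptor, had 3.14 FPKM in hairloss and 0.499 in wildtype skin. Cyp2b10 had 5.48 FPKM in hairloss and 1.60 in wildtype skin. Cyp2g1 had 1.43 FPKM in hairloss and 4.04 in wildtype skin.

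Listed genes of hair follicle formation showed no 2-fold difference, where 0.491% of all genes described were higher and 0.484% lower. At those shares, a count of none in lists of this size, or among the hair loss genes below, says little. None of 26 hair matrix genes, 14 Hedgehog pathway genes, 36 Wnt genes and 21 BMP genes passed the rule, and their medians were -0.11, -0.11, 0.00 and -0.09. The Hedgehog receptor and target Ptch1 had 68.9 FPKM in hairloss and 77.4 FPKM in wildtype skin. Mutations of 53 listed genes are known to make mice lose hair. Of these, 49 reached 1 FPKM, 0 passed 2-fold and the median was 0.02. Within that list Ctsl, encoding cathepsin L, had 186 FPKM in hairloss and 104 in wildtype skin. Hr, the corepressor hairless, had 37.8 FPKM in hairloss and 24.7 in wildtype skin. Agouti (a), the signal for yellow pigment, had 1.63 FPKM in hairloss and 7.01 in wildtype skin, while 15 melanocyte genes had a median of -0.17 with 0 past 2-fold.

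A few differences concerned single genes of general function. Rpl34 had 622 FPKM in hairloss and 264 FPKM in wildtype skin, the only one of 80 ribosomal protein genes past 2-fold, in a list with a median of 0.02. Ndufa12, a subunit of complex I, had 32.7 FPKM in hairloss and 76.6 in wildtype skin. The transcription factor Bach2 had 19.4 FPKM in hairloss and 42.9 in wildtype skin. Irf4, an interferon regulatory factor of lymphocytes and melanocytes, had 13.9 FPKM in hairloss and 4.02 in wildtype skin. Mrps23 and Cox20, of the mitochondrial ribosome and of cytochrome oxidase assembly, were higher. Mrps23 had 5.52 FPKM in hairloss and 0.829 in wildtype skin. Cox20 had 3.13 FPKM in hairloss and 0.178 in wildtype skin. Beside Col3a1 and the Y-linked genes, Crygn and Gm26992 were listed at 0 in 1 library and at 5 FPKM or more in the other. The crystallin gene Crygn was at 0 in hairloss and 5.25 FPKM in wildtype skin. The predicted gene Gm26992 had 5.26 FPKM in hairloss and 0 in wildtype skin. It lies on the X chromosome, and the part of the differing mix of sexes in its values was not tested.

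Part of the day 0 differences recurred at later ages, in comparisons that share no library with day 0. Of the 65 genes higher at day 0, those also higher at days 16, 19 and 28 numbered 25 (38.46%), 26 (40.0%) and 28 (43.08%), where 5.27%, 5.84% and 5.17% of all genes were. As a share of the later lists this was 3.53%, 3.26% and 4.03%. Of the 64 lower genes, 25 (39.06%), 16 (25%) and 31 (48.44%) were again lower, where 4.96%, 5.24% and 5.67% of all genes were, or 3.75%, 2.23% and 4.07% of the later lists. The 31 at day 28 include Col3a1, again listed at 0 in hairloss skin, and the Y-linked Eif2s3y, Ddx3y, Uty and Kdm5d. They also include the 16 lower histone genes, and 53 of the 67 histone genes were lower at day 28. The opposite direction was seen for 3 of the 65 at each later age, and for 4, 6 and 4 of the 64. The 6 at day 19 include Col3a1, listed at 0 in wildtype skin. Sex-linked RNA differed in later pairs too. At day 28 Eif2s3y was at 0 in hairloss and 41.2 FPKM in wildtype skin. Xist differed by -0.009, -3.583 and 5.455 at days 16, 19 and 28. The part of the mix of sexes in the recurrence was not tested.

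In all, 18 genes were higher at all 4 ages. They include Krt6b, Krt16, Rptn, Sprr2d, Stfa2, Stfa3, Calm4, Lce1k, Slurp1, Slurp2, Grhl3, Chit1 and Fkbp5. Many differed by more after birth than at birth. Krt6b had 570, 833 and 79.2 FPKM in hairloss libraries of days 16, 19 and 28 and 0.229, 0.236 and 0.170 FPKM in wildtype skin. Stfa3 had 8940, 10770 and 3978 FPKM in hairloss and 15.3, 12.6 and 45.9 FPKM in wildtype skin, so the wildtype level at birth was the highest of the 4 wildtype libraries. Sprr2d had 39.8, 68.8 and 39.0 FPKM in hairloss skin and was listed at 0 in wildtype skin of all 3 later ages. Fkbp5 kept a similar difference throughout, 1.46, 1.05, 1.34 and 1.40 at days 0, 16, 19 and 28.

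Lower at all 4 ages were 6 genes, Cyp2b19, Dapl1, Btc, Hist1h4c, Hist1h4h and Hist3h2ba. Cyp2b19 had 3.98, 6.76 and 4.95 FPKM in hairloss libraries of days 16, 19 and 28 and 25.6, 33.7 and 14.2 FPKM in wildtype skin. Dapl1 had 51.3, 25.7 and 46.0 FPKM in hairloss and 287, 258 and 463 FPKM in wildtype skin.

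**Figure D5:**
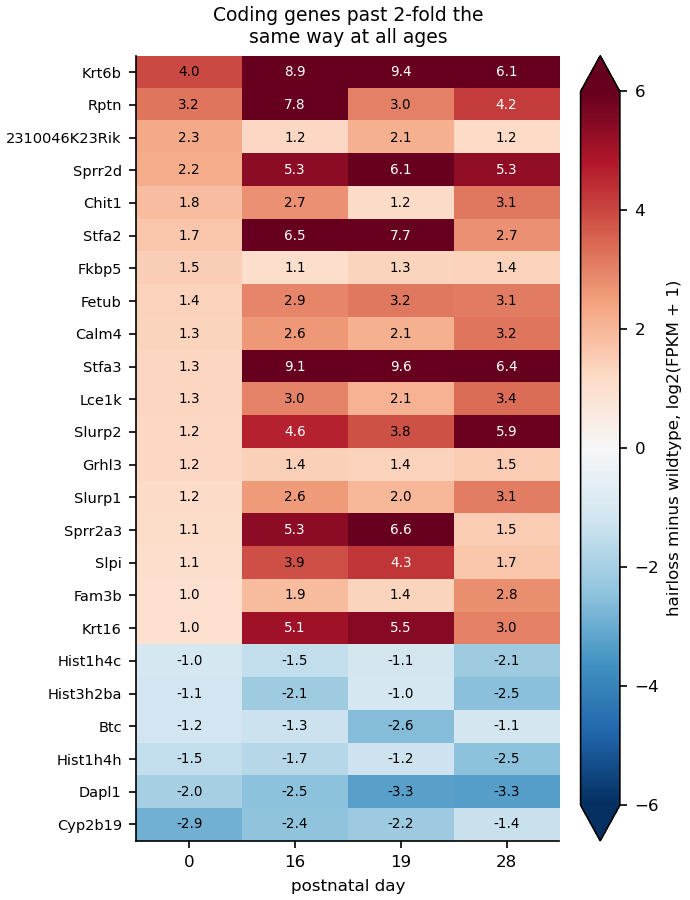
Difference between hairloss and wildtype skin on the log2(FPKM + 1) scale at each age (columns, 1 library per genotype and age) for the 18 coding genes at least 2-fold higher (red) and the 6 at least 2-fold lower (blue) at all 4 ages. Krt6b and Stfa3 have larger differences after day 0, while Fkbp5 and Grhl3 lie between 1.05 and 1.51 at every age.

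Other day 0 differences were not seen again. Among the 65 higher genes 29, and among the 64 lower genes 20, were past 2-fold the same way at no later age. The matching share over all genes was not counted. At days 16, 19 and 28, 5.27%, 5.84% and 5.17% of all genes were higher and 4.96%, 5.24% and 5.67% lower. Most genes were thus not past 2-fold at any 1 later age, and some of the genes counted here were near 0 by then. Ucp1 was at most 0.103 FPKM in every later library, and Krt12 at most 0.489 FPKM. Zbtb16, higher at day 0, had 3.01, 18.3 and 6.41 FPKM in hairloss libraries of days 16, 19 and 28 and 8.31, 19.3 and 3.31 FPKM in wildtype skin. Serpinb3a turned round, with 22.8, 30.2 and 8.33 FPKM in hairloss and 0.1004, 0.147 and 0 FPKM in wildtype skin.

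The difference at day 0 could be tested against the mean difference at the 3 later ages. Their spread leaves 2 residual degrees of freedom, and limma draws each gene's error towards the trend over all genes. Using limma on all 8 libraries, 26 of 18724 genes passed a Benjamini-Hochberg adjusted p of 0.05 (0.139%), and 0 of the 14301 protein-coding genes among them did. At an unadjusted p under 0.05 there were 459 genes. The nearest coding genes were Defb14, a beta-defensin, and Ucp1. Defb14 differed by 0.01 at day 0 and by 4.55 on average later, a change of -4.54 ± 0.311 (SE; limma adjusted p = 0.058). In every later library Ucp1 was at most 0.103 FPKM and Krt12 at most 0.489 FPKM, so the spread of their later differences was held small by low levels. Their SE thus rests in part on the spread of other genes. For Ucp1 the change was -4.50 ± 0.319 (limma adjusted p = 0.065), for Krt12 3.36 ± 0.341 (limma adjusted p = 0.2) and for Serpinb3a -6.47 ± 0.704 (limma adjusted p = 0.235). For Krt6b the change was -4.15 ± 1.51 and for Fkbp5 0.20 ± 0.274, each with a limma adjusted p of 1.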

How the data were processed

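The authors deposited 1 value per Ensembl gene and library, without a unit. These deposited values were taken as FPKM, inferred from their form and from the use of Cuffdiff. The submitters' processing notes name that tool, cutadapt and build mm10, without versions. Per the labels' protocols, RNA came from RNeasy columns and libraries from TruSeq kits. Aligner, annotation, strandedness, scaling between libraries and animals per library were not given in the sources used here. Types and coordinates came from GENCODE M21 (same build), which matched 55151 of 55418 genes.

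Depth was estimated from coding genes with a single transcript over 1000 bases: 85.3% of 455 low values in the hairloss and 65.0% of 466 in the wildtype library were within 0.1 fragment of whole numbers, with 284 bases taken off each length. Floors cover counting error only.

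Values were compared as log2(FPKM + 1). Members, 70 gene lists and motifs were chosen with earlier results of these data known. Named genes were the 15 largest differences each way, those at 0 in 1 library and at least 5 FPKM in the other, every keratin, up to 5 members of each list described, sex-linked genes, genes past 2-fold at all ages and the genes of smallest p. Others (Ckm, Fabp4, Flg, Lor, Ivl, S100a9, Sgk1, Per1, Cyp2b10, Cyp2g1, Skint1, Ptch1, Ndufa12, Bach2 and agouti) were added after their values were seen. The test against later ages used limma 3.58.1 (trend, robust) in R 4.3.3, two-sided. It was also run on simulated data with the same noise for every gene. The spread in the real data differed between genes, so that run cannot show how the test behaves on them. Other steps used Python 3.11.15, pandas 2.3.3, numpy 2.4.6 and matplotlib 3.10.9. Alternatives were other pseudocounts, filters, scalings and fold thresholds.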

Additional observations from a re-analysis of the deposited data

Results flagged for a closer look

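Serpinb3a, a protease inhibitor gene of keratinocytes, was marked because its difference at day 0 ran opposite to that at all 3 later ages. It had 4.35 FPKM in hairloss and 25.8 FPKM in wildtype skin at day 0, and at days 16, 19 and 28 it had 22.8, 30.2 and 8.33 FPKM in hairloss skin and 0.1004, 0.147 and 0 FPKM in wildtype skin. The day 0 difference minus the mean of the later ones was -6.47 on the log2(FPKM + 1) scale, which did not pass with limma (adjusted p = 0.235 over 18724 genes).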

How the results depend on the processing

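Counts of genes past 2-fold depend on the pseudocount, the filter and the fold. They were 132 higher and 145 lower at a pseudocount of 0.1, 20 and 23 at one of 5, 39 and 38 with at least 5 FPKM in either library, 316 and 240 at 1.5-fold, and 17 and 22 at 3-fold. With a pseudocount of 5, 43 of the 129 genes past 2-fold stayed past it. Scaling both libraries to the same coding total gave 59 higher and 83 lower and moved the median of all genes to -0.038. Added after seeing the data, leaving out Y-linked genes gave 60 lower, leaving out histone genes 48, and transcripts of at least 500 bases 59 higher and 53 lower. Lists with a median at least 0.25 from equality numbered 15, or 23 at a pseudocount of 0.1 and 8 at one of 5. The test against later ages called 26 genes, 0 at a pseudocount of 0.1, 40 at one of 5 and 150 with no filter. It called 0 without the day 16 pair, 11 without the day 19 pair and 0 without the day 28 pair, fits with fewer residual degrees of freedom. No paired analysis was possible because the labels carry no replicate numbers and day 0 has 1 library per genotype. Libraries are matched by age alone, which the test against later ages takes as a term. Values near 3 fragments, such as those of many keratin-associated proteins (median 0.048 FPKM in hairloss skin), are limited by depth.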
